A study of Saccharomyces cerevisiae with 2 samples.

Results

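The genes described here encode the proteasome of Saccharomyces cerevisiae, together with RPN4, the gene of its transcription factor, and UBI4, the gene of polyubiquitin. They comprise 34 of the 7127 features of the count table. They were chosen by name and function, not by their values, but with earlier results of these data known. The list holds 14 genes of the core particle, 10 of the base and 8 of the lid, which are 32 subunit genes in all, plus RPN4 and UBI4. RNA-seq of total RNA was carried out for 1 npl3Δ library and 1 wild type library, without removal of rRNA and with 200 ng of RNA each. The npl3Δ cells lack NPL3, which encodes an mRNA-binding protein, and the wild type cells carry the gene. Both were grown at 25 °C. The strains derive from BY4741 or, in a few cases, from S288C, and wild type does not mean free of auxotrophic markers. Deletion of NPL3 slows growth mildly in the BY4741 background. Which npl3Δ strain was sequenced is not given in the sources used here.

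NPL3 itself (YDR432W) had 3 counts in npl3Δ and 1345 in wild type. Features other than rRNA held 6674796 counts in npl3Δ and 4799318 in wild type. These totals include ATG26 and BDF1. Scaling to the totals without these genes put the median log2 ratio of all compared genes at 0.25. Of the features other than rRNA, 6118 had at least 10 counts in the libraries together and were compared, all 34 genes described here among them. Their median count was 171 in npl3Δ and 118 in wild type. The libraries also differed in mating type: STE2, the pheromone receptor gene of a cells, had 8 counts in npl3Δ and 774 in wild type, and STE3, the receptor gene of alpha cells, had 1326 counts in npl3Δ and 6 in wild type. The 84 compared genes on chromosome I had a median log2 ratio of 0.97, and none of the genes described here lies there. With 1 library per genotype, the loss of NPL3, the mating type and any other difference between the strains or cultures cannot be told apart. No p-values are given, and the differences have no replicate check.

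The proteasome degrades proteins that carry a ubiquitin chain. Its core particle (20S) is a barrel of stacked rings, in which outer rings of alpha subunits form a gate and inner rings of beta subunits carry the proteolytic sites. The regulatory particle (19S) caps the barrel: its base holds a ring of ATPases that unfold the substrate and thread it into the core, and its lid holds the enzyme that cuts off the ubiquitin chain. In yeast, Rpn4 activates most proteasome genes by binding a promoter element called PACE (proteasome-associated control element). Rpn4 is itself a short-lived substrate of the proteasome, so that its amount grows when degradation is slow.

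The PACE letters GGTGGCAAA were searched on both strands, from 250 bases before to 50 bases after the start codon, in the R64 genome from RefSeq, which is the build of the deposited counts (sacCer3). A match was found for 28 of the 34 genes (82.4%), against 72 of 6001 promoters of protein-coding genes (1.20%). The 72 include these 28. PACE is known as an element of proteasome genes, so a high share among them was likely beforehand. Matches lay 84 to 183 bases before the start codon, with a median of 122, and 19 of the 28 read GGTGGCAAA on the strand of the gene. The promoters shown first are a selection of genes with a complete match and high or low ratios, PRE9, PRE8 and PRE3 of the core particle, RPT2, RPT1 and RPT4 of the base and RPN5 and RPN9 of the lid, together with UBI4. Capitals mark the match, written 5' to 3' on the strand of the gene.
PRE9 (chrVII:761223-761252, plus strand): ttaccctgcaGGTGGCAAAaaatttataga
PRE8 (chrXIII:86840-86869, minus strand): agcttattaaGGTGGCAAAattgtccccgg
PRE3 (chrX:435035-435064, plus strand): aacggaatccGGTGGCAAAaaagggaaaag
RPT2 (chrIV:437906-437935, plus strand): gtttttctccGGTGGCAAAtgtctcttttc
RPT1 (chrXI:174048-174077, plus strand): attaccgaatTTTGCCACCcgaaaactaaa
RPT4 (chrXV:813801-813830, minus strand): aatagtggaaTTTGCCACCgaagggaaagg
RPN5 (chrIV:190776-190805, plus strand): ttgacttttcGGTGGCAAAatgcaaagggg
RPN9 (chrIV:1322086-1322115, plus strand): gctttcatccGGTGGCAAAagtaagaacaa
UBI4 (chrXII:65348-65377, minus strand): ggctccgggtTTTGCCACCtttgaattcgc

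The element was complete in 12 of 14 core promoters, 8 of 10 base promoters and 7 of 8 lid promoters. PRE5, PUP1, RPN10, RPN13 and RPN8 had no complete match and came closest with 1 differing base, which is in lower case in the next set. In PRE5, PUP1 and RPN8 it is the first letter of the element, directly before the capitals, and in RPN10 and RPN13 it lies within them. These 5 are shown because the subunit with the highest ratio, RPN8, is one of them.
PRE5 (chrXIII:901552-901581, plus strand): cctattatagaGTGGCAAAattaaaaattc
PUP1 (chrXV:631890-631919, minus strand): aacccggccgaGTGGCAAAataccaaaaag
RPN8 (chrXV:817084-817113, minus strand): gggatacctcaGTGGCAAAtcgttactcaa
RPN10 (chrVIII:498968-498997, plus strand): caggcgggttTTcGCCACCggaatttacaa
RPN13 (chrXII:965655-965684, minus strand): ttattcgcgaGGTGGCgAAagctttgctac
PRE5, PUP1 and RPN8 shared the same 9 letters, and RPN10 carried on the opposite strand the same 9 letters as RPN13. The promoter of RPN4 differed from the element by at least 3 bases at every position. With up to 1 differing base allowed, 33 of the 34 genes and 7.57% of all promoters had a match. A match describes the letters only and does not show that Rpn4 binds there.

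Counts per gene were compared as the ratio of npl3Δ to wild type, divided by the ratio of the median gene (1.40), so that a ratio of 1 or a log2 ratio of 0 means the behaviour of the median gene. The 95% intervals given with a ratio cover counting error only. Relative to the median gene, 27 of the 34 proteasome genes lay above 0 in npl3Δ and 7 below, while 3059 of all 6118 compared genes lay above. The shift was small: the 32 subunits had a median log2 ratio of 0.24, which is 1.18-fold, and their summed counts of 20861 in npl3Δ and 12763 in wild type gave a ratio of 1.16 (1.14 to 1.19). Ratios of at least 1.5-fold up were found for 2 of the 34 genes, RPT2 and RPN8, and none was down by as much. Of all compared genes, 15.9% were up and 12.3% down by 1.5-fold or more.

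The intervals of 20 genes lay wholly above 1 and those of 4 wholly below. Over all compared genes these shares were 22% above and 24.7% below. An interval narrows with the count, and the subunit with the fewest counts in wild type had 172, above the median of 118. Among the 1817 compared genes with summed counts as for the subunits (466 to 3001), 24.2% had an interval wholly above 1 and 7.32% were up by 1.5-fold or more. Among the 32 subunits these numbers were 19 and 2. The log2 ratios of the subunits had an SD of 0.26 across genes, whereas counting error alone had a root mean square of 0.10. Genes with like counts were more dispersed, with an SD of 0.70 over 1770 coding genes.

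**Figure D1:**
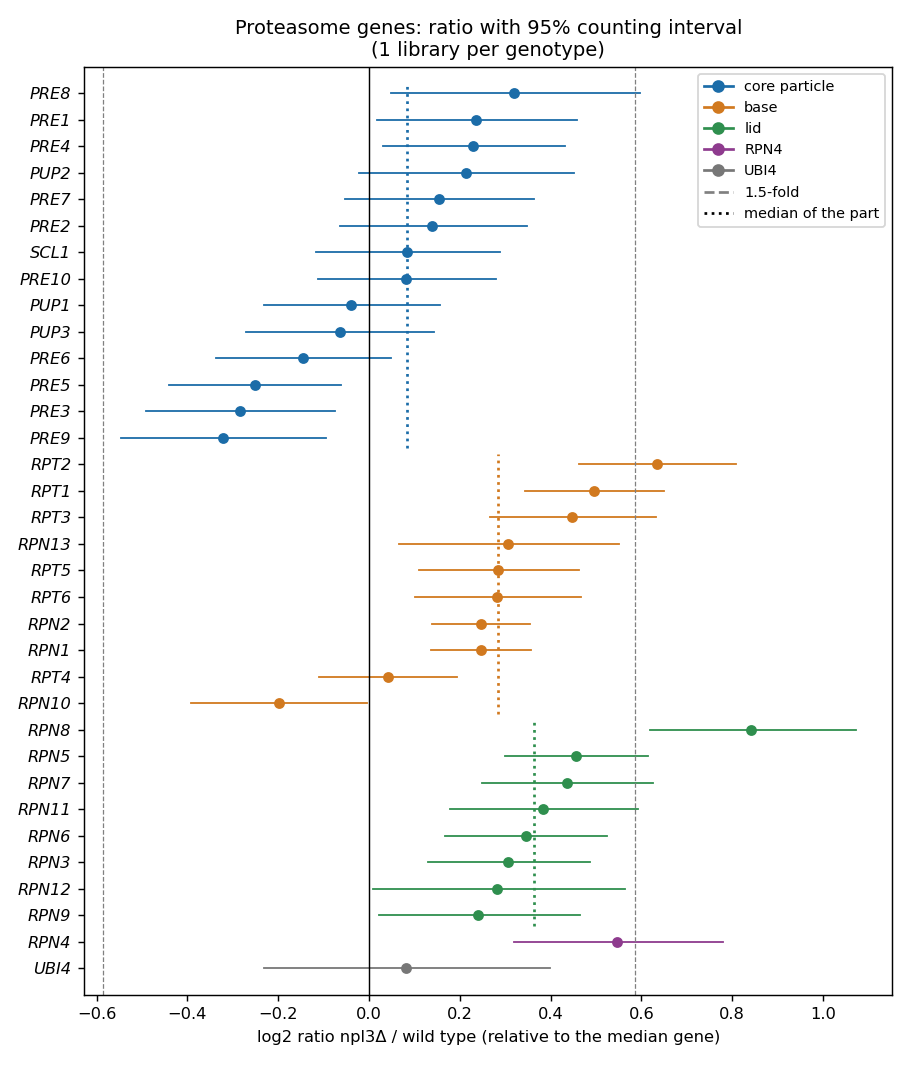
Log2 ratio of npl3Δ to wild type relative to the median gene, for each of the 34 genes, with its 95% counting interval (bars), the median of the part (dotted) and the 1.5-fold lines (dashed). All 8 lid genes and 9 of 10 base genes lie above 0, and core genes lie on both sides, between -0.32 and 0.32.

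In the core particle no subunit changed by 1.5-fold. The 14 genes were spread around the median gene, with 8 above and 6 below, and a median log2 ratio of 0.083. Their summed counts were 6462 in npl3Δ and 4562 in wild type, a ratio of 1.01 (0.972 to 1.05). Intervals lay wholly above 1 for 3 of the 14, wholly below for 3, and included 1 for 8.

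The alpha ring held both ends of the core range. PRE8 (YML092C), the alpha subunit with the fewest counts, had 305 counts in npl3Δ and 174 in wild type, a ratio of 1.248 (1.03 to 1.51). PRE9 (YGR135W, chromosome VII, 761392 to 762168, plus strand), whose product is the sole subunit of the core that yeast can live without, had 345 counts in npl3Δ and 307 in wild type, a ratio of 0.801 (0.685 to 0.937). PRE5 (YMR314W) was also below 1, with 500 counts in npl3Δ, 424 in wild type and a ratio of 0.840 (0.737 to 0.959). The remaining alpha genes could not be told from the median gene by their counts. Their ratios ranged from 0.904 to 1.16, with 500 counts in npl3Δ and 336 in wild type for SCL1, 538 in npl3Δ and 362 in wild type for PRE10, 389 in npl3Δ and 239 in wild type for PUP2, and 509 in npl3Δ and 401 in wild type for PRE6. The alpha ring as a whole had a ratio of summed counts of 0.980 (0.928 to 1.04).

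The beta ring carries the proteolytic sites, in the products of PRE3 (caspase-like), PUP1 (trypsin-like) and PRE2 (chymotrypsin-like). PRE3 (YJL001W, chromosome X, 435163 to 435926, plus strand), the sole gene of the set with an intron, had 414 counts in npl3Δ and 359 in wild type, a ratio of 0.822 (0.712 to 0.949). PUP1 (YOR157C) had 518 counts in npl3Δ and 379 in wild type, a ratio of 0.974 (0.851 to 1.11). PRE2 (YPR103W) had 498 counts in npl3Δ and 322 in wild type, a ratio of 1.10 (0.956 to 1.27). The catalytic genes thus lay on both sides of 1, and their summed counts gave 0.961 (0.887 to 1.04). Among the beta genes whose products lack an active site, PRE1 (455 counts in npl3Δ, 275 in wild type) and PRE4 (548 in npl3Δ, 333 in wild type) had intervals just above 1, at ratios of 1.18 (1.01 to 1.37) and 1.17 (1.02 to 1.35). PRE7 (492 counts in npl3Δ, 315 in wild type) had a ratio of 1.11 and PUP3 (451 in npl3Δ, 336 in wild type) one of 0.956, both with intervals that included 1. The beta ring had a ratio of summed counts of 1.04 (0.984 to 1.09). The quotient of the ratios of beta and alpha ring, 1.06 (0.981 to 1.14), included 1.

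Genes of the base were higher in npl3Δ than the median gene, except RPN10. Of the 10, 9 were above 0, 8 had an interval wholly above 1, and RPT2 was above 1.5-fold. The median log2 ratio was 0.28 (1.22-fold), and summed counts of 9459 in npl3Δ and 5558 in wild type gave a ratio of 1.21 (1.17 to 1.254).

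The 6 ATPase genes RPT1 to RPT6 encode the ring that unfolds substrates. All had ratios above 1, from 1.03 to 1.55. RPT2 (YDL007W, chromosome IV, 438047 to 439360, plus strand), whose product helps to open the gate of the core, had 867 counts in npl3Δ and 398 in wild type, a ratio of 1.55 (1.38 to 1.75). RPT1 (YKL145W) had 1041 counts in npl3Δ and 526 in wild type, a ratio of 1.41 (1.27 to 1.57). RPT3 (YDR394W) had 720 counts in npl3Δ and 376 in wild type, a ratio of 1.36 (1.20 to 1.55). The ATPase genes were not uniform, since the intervals of RPT2 and of RPT4 (YOR259C) did not overlap. RPT4 had 874 counts in npl3Δ and 605 in wild type, a ratio of 1.03 (0.927 to 1.14). RPT5 (722 counts in npl3Δ, 422 in wild type) and RPT6 (669 in npl3Δ, 392 in wild type) lay between, both at a ratio of 1.22.

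The other base genes encode scaffolds and ubiquitin receptors. RPN1 (YHR027C) and RPN2 (YIL075C), the large scaffolds and the most highly counted genes of the set, had equal ratios: RPN1 had 1815 counts in npl3Δ and 1090 in wild type, and RPN2 had 1875 in npl3Δ and 1126 in wild type. Both gave a ratio of 1.19 (1.10 to 1.28). The ubiquitin receptor genes went apart. RPN13 (YLR421C) had 387 counts in npl3Δ and 223 in wild type, a ratio of 1.24 (1.05 to 1.46). RPN10 (YHR200W) had 489 counts in npl3Δ and 400 in wild type, a ratio of 0.871 (0.762 to 0.997), the sole base gene below the median gene. RPN10 also had the highest GC content of the 34 genes, 47.5%, against 38.2% in RPN13. Relative to genes of like GC content (described with the comparison of the parts), its log2 ratio was -0.041. With genes matched in length, GC content and count together, RPN10 was at 0.027. Rpn10 sits between base and lid and also occurs free of the proteasome. Counting RPN10 with the lid or leaving it out moved neither the median of base nor that of lid by more than the counting error of its middle genes.

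Genes of the lid were higher in npl3Δ than the median gene. All 8 lay above it, all 8 intervals were wholly above 1, and the lowest log2 ratio was 0.24. Relative to genes of like GC content (described with the comparison of the parts), 7 of 8 lay above 0, RPN9 was at -0.015, and 6 intervals were wholly above 1. The median was 0.36 (1.29-fold), and summed counts of 4940 in npl3Δ and 2643 in wild type gave a ratio of 1.33 (1.27 to 1.40).

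RPN8 (YOR261C, chromosome XV, 815915 to 816931, minus strand), which encodes the partner of the deubiquitinase Rpn11 in the lid, had the highest ratio of all subunits. It had 569 counts in npl3Δ and 226 in wild type, a ratio of 1.79 (1.54 to 2.10), and 10.1% of all compared genes had a higher one. RPN11 (YFR004W), the gene of the deubiquitinase that removes the chain from the substrate, had 544 counts in npl3Δ and 297 in wild type, a ratio of 1.30 (1.13 to 1.51). The other lid genes encode subunits that hold these together, without an active site of their own. RPN5 (YDL147W) had 968 counts in npl3Δ and 503 in wild type, a ratio of 1.37 (1.23 to 1.53), and RPN7 (YPR108W) had 676 in npl3Δ and 356 in wild type, a ratio of 1.35 (1.19 to 1.54). RPN6, RPN3, RPN12 and RPN9 had ratios from 1.18 to 1.27. Of these, RPN6 had 724 counts in npl3Δ and 406 in wild type, RPN3 had 712 in npl3Δ and 410 in wild type, RPN9 had 453 in npl3Δ and 273 in wild type, and RPN12, the lid gene with the fewest counts, had 294 in npl3Δ and 172 in wild type. The small lid subunit SEM1 (YDR363W-A) is not among the 34 genes. It had 360 counts in npl3Δ and 174 in wild type, a ratio of 1.47 (1.23 to 1.78).

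RPN4 (YDL020C, chromosome IV, 415113 to 416708, minus strand) had 478 counts in npl3Δ (Poisson interval 436 to 523) and 233 in wild type (204 to 265), before scaling. The scaled ratio was 1.46 (1.247 to 1.72), short of 1.5-fold, and 17.1% of all compared genes had a higher one. Only RPT2 and RPN8 among the subunits had a higher ratio. UBI4 (YLL039C, chromosome XII, 64062 to 65207, minus strand), the stress-induced gene that encodes ubiquitin units in a row, had 211 counts in npl3Δ and 142 in wild type, a ratio of 1.06 (0.852 to 1.32), which included 1. UBI4 is uncertain for another reason: of the stretches of 50 bases in its coding sequence, 81.8% occur once in the genome, and the rest occur more than once. In each of the other 33 genes every such stretch occurs once.

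Set side by side, the parts were ordered lid, base, core particle. The median log2 ratio of the lid was 0.28 above that of the core particle (0.36 in the lid, 0.083 in the core), and the quotient of their ratios of summed counts was 1.32 (1.24 to 1.40). The base was 0.20 above the core particle, with a quotient of 1.20 (1.14 to 1.26). Lid and base were closest, with medians 0.081 apart and a quotient of 1.10 (1.04 to 1.16). These quotients compare genes within the same libraries, so that the scaling between libraries cancels out. The ranges overlapped: 5 of 8 lid genes and 3 of 10 base genes lay above the highest core gene, and 13 of 14 core genes lay below the lowest lid gene. Within the base, the quotient of ATPase to other genes was 1.12 (1.05 to 1.20). Most counts of these other genes belonged to RPN1 and RPN2, so the quotient mainly sets the ATPase genes against them.

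GC content moved with the ratio across the libraries and differed between the parts. Among 5667 coding genes, the quartile with the lowest GC content had a median log2 ratio of 0.16 and the quartile with the highest one of -0.17. Lid genes had a median GC content of 37.1%, base genes 40.8% and core genes 41.9%, and all coding genes 39.8%. Each gene was therefore also scaled to the median of the 500 other coding genes nearest to it in GC content, which was added once the values were known. The median log2 ratios were then 0.29 for the lid, 0.29 for the base and 0.16 for the core particle, so that lid and base were 0.0077 apart and the lid was 0.13 above the core particle. On this scale 7 of 8 lid genes, 9 of 10 base genes and 11 of 14 core genes lay above 0, and 3 of 14 core genes lay below the lowest lid gene. RPN8, with one of the lowest GC contents of the set, was the sole gene past 1.5-fold (a log2 ratio of 0.585), but RPT2 and RPT1 both missed it narrowly, at 0.5845 and 0.5844. The parts also differ in coding length, with medians of 1236 nucleotides in the lid, 1309.5 in the base and 762 in the core. The length of genes moved little with the ratio (medians of 0.044 in the shortest quartile and 0.0060 in the longest), and scaling to genes of like length left the lid 0.34 above the core particle. Scaling to genes of like count left it 0.28 above. With genes matched in length, GC content and count together, the medians were 0.46 for the lid, 0.36 for the base and 0.17 for the core particle, so that the lid was 0.29 above the core particle and 0.10 above the base. On that scale all 8 lid genes, all 10 base genes and 11 of 14 core genes lay above 0, and 4 of 14 core genes lay below the lowest lid gene. It also used the nearest 500 genes, which match GC content less closely than 500 genes chosen by GC content alone. For lid genes, the median of the values used for scaling was 0.13 with GC content alone and -0.012 with the traits together. How close the match in GC content remained was not tested.

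**Figure D2:**
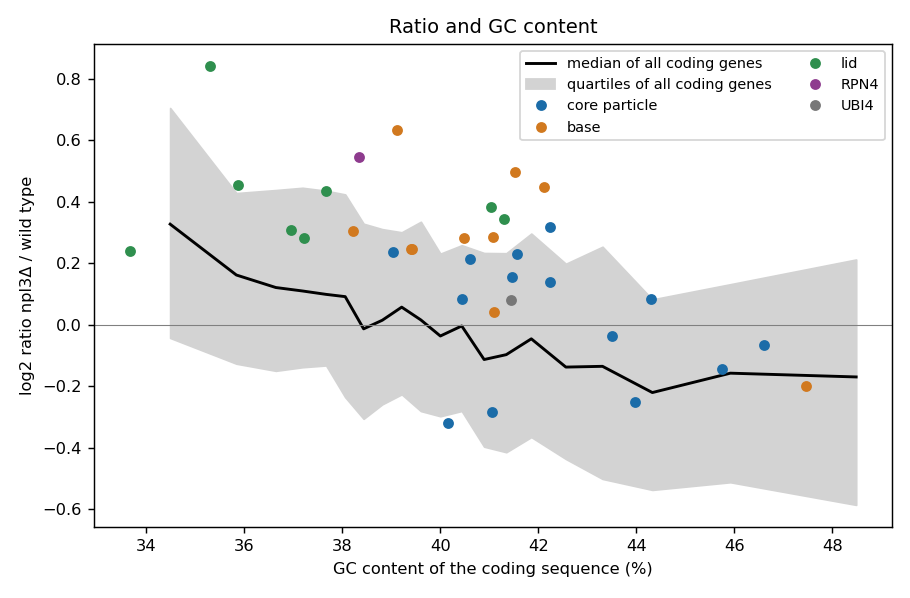
Log2 ratio of npl3Δ to wild type against the GC content of the coding sequence (%) for the 34 genes (points, coloured by part), with the median (line) and quartiles (grey) of coding genes in 20 bins of GC content. The line falls with GC content from 0.33 in the lowest bin to -0.17 in the highest, and lid genes lie mostly at its left.

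Levels between genes were compared as counts per kilobase of coding sequence, with npl3Δ divided by 1.40. In npl3Δ, the median was 470 for the core particle (289 to 543), 452 for the base (391 to 585) and 384 for the lid (254 to 516). In wild type, it was 438 for the core particle (231 to 601), 370 for the base (292 to 496) and 268 for the lid (208 to 376). In wild type the medians were thus ordered core, base, lid, the reverse of the order of the ratios. The wild type level is the denominator of the ratio, so levels and ratios are not separate observations. The levels were not adjusted for GC content. The parts were closer to each other in npl3Δ: the core median was 1.22 times the lid median in npl3Δ and 1.63 times in wild type, and 1.04 times the base median in npl3Δ and 1.18 times in wild type. Over the 32 subunits, the coefficient of variation was 18.7% in npl3Δ and 27.5% in wild type. Within the core particle it was 17.1% in npl3Δ and 22.5% in wild type, and within the base 13.6% and 19.5%. The lid went the other way, with 23.0% in npl3Δ and 20.8% in wild type. The highest subunit stood 2.31 times above the lowest in npl3Δ (RPN13 and RPN12) and 2.88 times in wild type (PRE5 and RPN12).

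**Figure D3:**
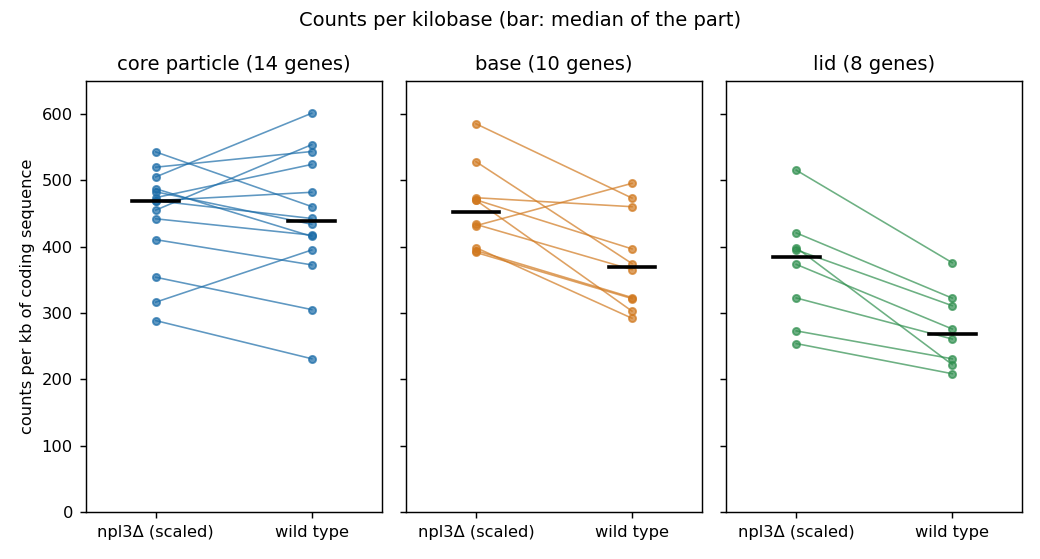
Counts per kilobase of coding sequence of each core, base and lid gene in npl3Δ (left, scaled to the median gene) and wild type (right), with the median of the part as a bar. Each line joins the values of 1 gene, and the bars stand at 470, 452 and 384 in npl3Δ and at 438, 370 and 268 in wild type.

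The order of single genes was largely kept, with a Spearman correlation of 0.74 between the libraries over the 32 subunits. This value describes genes within the same libraries, and each gene has the same length and base composition in both. RPN12 (356 counts per kilobase before scaling in npl3Δ, 208 in wild type) was the lowest subunit in either library. RPN4 and UBI4 lay below all subunits in either library. RPN4 had 299 counts per kilobase before scaling in npl3Δ and 146 in wild type, and UBI4 had 184 in npl3Δ and 124 in wild type.

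Subunits with and without a complete PACE match were set side by side, without a test. The 27 with a match had a median log2 ratio of 0.25, and 23 of them lay above 0. The 5 without one had a median of -0.039, with 2 above 0, and included both RPN8 at 0.84 and PRE5 at -0.25. These values were not scaled for GC content. Of the 5, RPN10, PRE5 and PUP1 had GC contents of 47.5%, 44.0% and 43.5%, above the coding median of 39.8%. RPN13 and RPN8 were below it, at 38.2% and 35.3%. Whether GC content accounts for the difference was not tested. Of the genes with a match whose promoters are shown above, RPT2 had the highest ratio of its part, RPT4 the lowest of the ATPases, and PRE9 the lowest of all 34. RPN4, with no match, had a log2 ratio of 0.55.

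**Figure D4:**
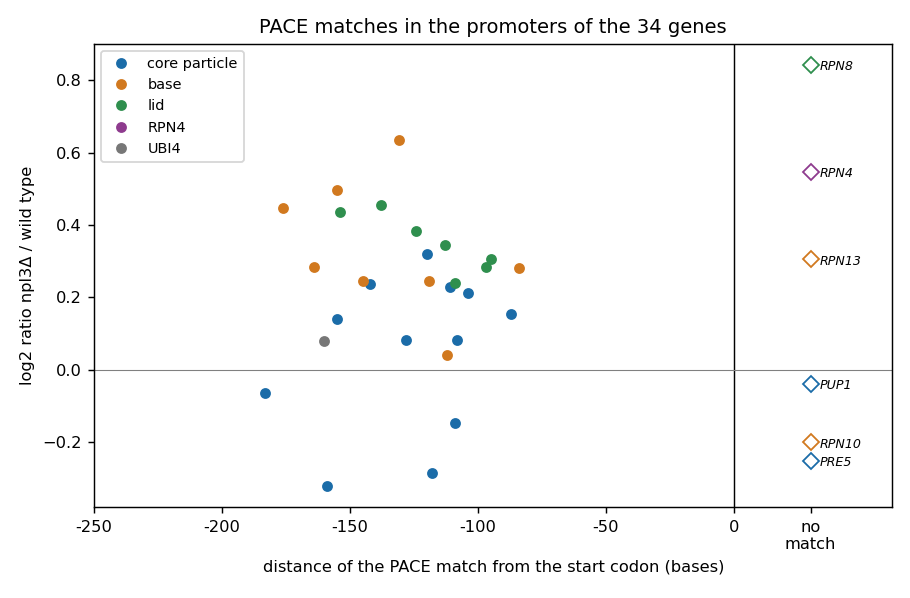
Log2 ratio of npl3Δ to wild type against the distance of the PACE match from the start codon (bases, filled circles, coloured by part), with the 6 genes without a complete match as open diamonds at the right. Matches lie between 84 and 183 bases before the start, and genes with and without a match lie on both sides of 0.

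Outside the proteasome, 44 genes had a PACE match in the same window, of which 42 were compared and 7 share their match with a neighbouring proteasome gene. Their median log2 ratio was 0.0089, close to that of the median gene, and 21 of 42 were above 0. By 1.5-fold, 8 were up (19.0%) and 1 down (2.38%), against the 15.9% and 12.3% of all compared genes. Among those whose counts in both libraries summed to 100 or more, the highest ratios were found for ECM29 (YHL030W), a proteasome-associated protein, for CUZ1 (YNL155W), a protein linked to the proteasome and Cdc48, and for NOP14 (YDL148C), a factor of small ribosomal subunit assembly. ECM29 had 1353 counts in npl3Δ and 409 in wild type, a ratio of 2.36 (2.11 to 2.64). CUZ1 had 241 in npl3Δ and 77 in wild type, a ratio of 2.22 (1.72 to 2.92), and NOP14, which shares its match with RPN5, had 584 in npl3Δ and 250 in wild type, a ratio of 1.66 (1.43 to 1.94). The lowest ratios belonged to WSS1 (YHR134W), a protease for DNA-protein crosslinks, CCT6 (YDR188W), a subunit of the chaperonin CCT, and CDC48 (YDL126C), the segregase that hands substrates to the proteasome. WSS1 had 54 counts in npl3Δ and 62 in wild type, a ratio of 0.621 (0.423 to 0.909). CCT6 had 678 in npl3Δ and 701 in wild type, a ratio of 0.689 (0.619 to 0.767), and CDC48 had 3333 in npl3Δ and 3318 in wild type, a ratio of 0.716 (0.682 to 0.751).

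Of 43 other genes of the ubiquitin-proteasome pathway, 6 were up (14.0%) and 1 down (2.33%) by 1.5-fold or more, beside the 15.9% and 12.3% of all compared genes, so that the number up was near the background. Of the 43, 28 lay above the median gene. The median log2 ratio of the 43 was 0.23. Their summed counts went the other way, with 29017 in npl3Δ and 21868 in wild type, a ratio of 0.946 (0.929 to 0.962). Highly counted genes weigh most in this sum. RPS31 alone held 3760 of the counts in npl3Δ and 4902 in wild type, and CDC48 held 3333 in npl3Δ and 3318 in wild type. Of the proteasome-associated genes, 7 of 8 were above 0 and 2 were up, with a median of 0.42. Past 1.5-fold were ECM29 and HUL5 (YGL141W), the gene of a ubiquitin ligase bound to the proteasome, which had 233 counts in npl3Δ and 99 in wild type, a ratio of 1.67 (1.32 to 2.14). The genes of 9 assembly chaperones, which build the particle and leave it, scattered around 0, with a median of 0.067 and a range of -0.57 to 0.65. One of these, NAS2 (YIL007C), was past 1.5-fold at few counts, 60 in npl3Δ and 27 in wild type, and its interval of 0.990 to 2.59 included 1. UMP1, the chaperone of core assembly, had 409 counts in npl3Δ and 278 in wild type, a ratio of 1.05 (0.898 to 1.23).

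Of the 4 genes of ubiquitin fusions and ubiquitin activation, 3 lay below the median gene. RPS31 (YLR167W), a fusion of ubiquitin to a ribosomal protein, had 3760 counts in npl3Δ and 4902 in wild type, a ratio of 0.547 (0.524 to 0.570), and was the sole pathway gene down by 1.5-fold. RPL40A, another such fusion, had 1844 counts in npl3Δ and 1768 in wild type, a ratio of 0.743 (0.696 to 0.794). Its near copy RPL40B, with which it may share reads, had 1852 in npl3Δ and 1345 in wild type, a ratio of 0.981 (0.914 to 1.05). UBA1, the gene of the ubiquitin-activating enzyme, had the opposite sign, with 2240 counts in npl3Δ, 1162 in wild type and a ratio of 1.37 (1.28 to 1.48). The 7 genes of shuttle factors and the Cdc48 complex, which bring substrates to the proteasome, had a median of -0.044 and none past 1.5-fold.

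Genes that control Rpn4 had 7 of 8 above 0 and a median of 0.27. PDR1 (YGL013C), a drug-resistance regulator that activates RPN4, had 506 counts in npl3Δ and 208 in wild type, a ratio of 1.73 (1.47 to 2.05). UBR2, the ligase that marks Rpn4 for degradation, had 588 in npl3Δ and 287 in wild type, a ratio of 1.46 (1.27 to 1.69). Activators of RPN4 were not all higher: YAP1, of the oxidative stress response, had 487 counts in npl3Δ and 376 in wild type, a ratio of 0.923 (0.805 to 1.06). Among 7 genes of ubiquitin conjugation and recycling, with a median of 0.37, UFD4 (YKL010C), a ubiquitin ligase, had 815 counts in npl3Δ and 382 in wild type, a ratio of 1.52 (1.34 to 1.72). UBC5, a ubiquitin-conjugating enzyme, was also past 1.5-fold but had only 47 counts in npl3Δ and 20 in wild type, with an interval of 0.973 to 2.98. The lists differed in GC content and were not scaled for it. The median GC content was 37.9% for proteasome-associated genes, 37.8% for conjugation and recycling and 37.3% for genes that control Rpn4. It was 39.8% for assembly chaperones, 42.3% for shuttle factors and the Cdc48 complex and 40.3% for ubiquitin fusions and activation. Whether GC content accounts for differences between lists was not tested. In a bulk culture, fewer cells with a transcript and less of it per cell cannot be told apart.

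**Figure D5:**
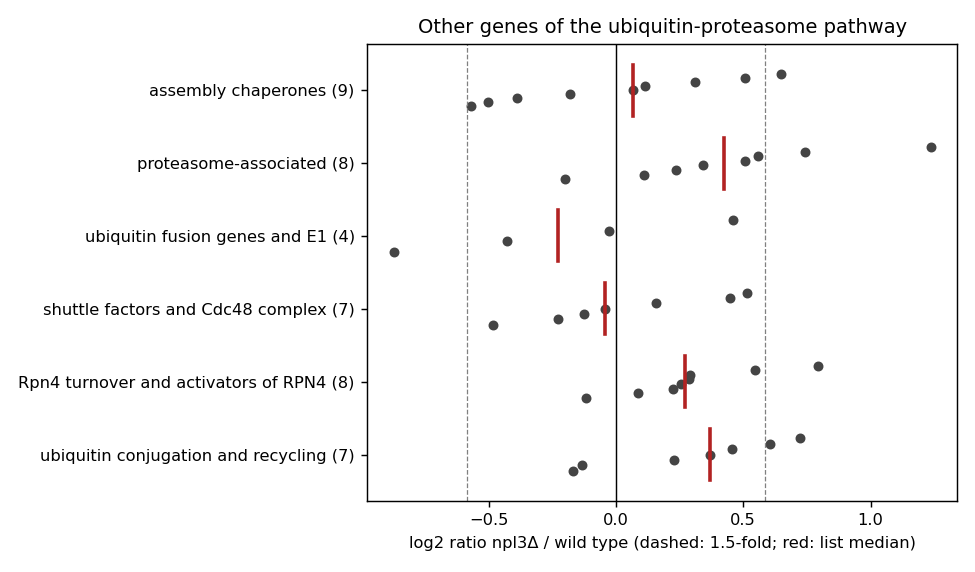
Log2 ratio of npl3Δ to wild type for 43 other genes of the ubiquitin-proteasome pathway in 6 lists (points), with the list median in red and the 1.5-fold lines dashed. The median is highest for proteasome-associated genes (0.42) and lowest for the ubiquitin fusion genes and E1 (-0.23). The ratios are not scaled for GC content, which differs between the lists.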

How the data were processed

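RNA-seq counts were available for 1 npl3Δ and 1 wild type library. Mapping to sacCer3 by Hisat2 and counting by featureCounts were done by the authors, who deposited raw counts per feature. The annotation, the versions and the treatment of reads with several positions are not given in the sources used here. The deposited coverage of the 35S rRNA was not used.

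Of the 7127 features, 6047 were matched to the RefSeq annotation of R64 by locus tag and 41 by symbol, and 1039 were not. The 22 rRNA features and 2 features inside the 35S rRNA were left out. Log2 ratios were formed with a pseudocount of 0.5 for features whose counts in both libraries summed to 10 or more and scaled to their median. Intervals are 95% exact conditional binomial (Clopper-Pearson), and a quotient of summed ratios has a normal approximation on the log scale. They treat the scaling as known, and reads counted without molecular identifiers can be copies of 1 molecule. RPN10 was counted with the base. As 99.2% of coding lengths were multiples of 3, lengths hold no UTRs. No member overlaps another RefSeq gene.

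Members and lists were chosen with earlier results of these data known. Named were all members, NPL3, the genes of each other list past 1.5-fold with at least 100 counts (at most 3), and the 3 highest and 3 lowest other genes with a PACE match and 100 counts. SEM1, UMP1, UBA1, RPL40A, RPL40B, UBR2, YAP1, NAS2, UBC5, STE2 and STE3 were picked with their values in view. The scaling, minimum count, pseudocount, fold, assignment of RPN10 and PACE search were varied. The scripts were tested on simulated data. R 4.3.3 with edgeR 4.0.16 (TMM factor) and Python 3.11.15 with pandas 2.3.3, scipy 1.17.1, numpy 2.4.6 and matplotlib 3.10.9 were used.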

Additional observations from a re-analysis of the deposited data

How the results depend on the processing

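Of 164 values recomputed under other settings, 150 stayed close to the reported one, 14 moved and none changed sign. Close meant a shift smaller than the counting error or, for counts and percentages, a factor of at most 1.5. Many values could not move: a common scaling factor or another minimum count leaves the differences between parts as they are. The lid minus the core particle counted as close though it fell from 0.28 to 0.13 with genes of like GC content. The settings with genes of like length, GC content or count, and the PACE search with 1 differing base, were chosen after the data had been seen. Scaling to the sum of counts without ATG26 and BDF1 moved most: the median of all genes became 0.25, 26.5% of genes were up and 6.77% down by 1.5-fold, and the median log2 ratios were 0.34 for the core particle, 0.54 for the base and 0.62 for the lid, with 0.80 for RPN4. In that setting 9 members and 16 other pathway genes were up. At 2-fold 0 members were up, beside 7.78% of all genes. At the lower fold tried (0.32 on the log2 scale) 9 members were up, beside 27.1% of all genes, and 16 pathway genes were up and 6 down. Scaling to genes of like GC content left 1 member up, and to genes of like length, GC content and count together 4 (the cause was not tested). With a minimum of 1 count, 2 pathway genes were down. With up to 1 differing base, 7.57% of promoters had a PACE match. No member was down in any of the 13 settings tried. The 2-fold setting could not give one, as none was down at 1.5-fold. At the lower fold PRE9 missed it narrowly, with a log2 ratio of -0.3208 where the limit was 0.3219 in size. The lid stayed above the core particle by 0.13 to 0.40 and the base by 0.12 to 0.26, and the lid above the base by 0.0077 to 0.14. RPN4 ranged from 0.52 to 0.80 and UBI4 from 0.043 to 0.33. The TMM factor of edgeR (0.48 on the log2 scale) was close to the median scaling (0.49). No paired analysis was possible because there was 1 library per genotype. Counting error alone limits single members to about 0.10 on the log2 scale, and the spread between cultures is unknown.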
